A study of Arabidopsis thaliana with 9 samples.

Results

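The 5 genes described here belong to jasmonate inactivation in Arabidopsis thaliana. CYP94C1 (AT2G27690), CYP94B3 (AT3G48520) and CYP94B1 (AT5G63450) are cytochrome P450 genes of the CYP94 family, and AT5G05600 and AT2G38240 were taken as 2-oxoglutarate oxygenase genes. Each had a single probe set, so that the group held 5 of the 22746 probe sets tested and 5 of the 14149 genes that had a named probe set. Probe sets were found for all 5 genes, of which the platform annotation named AT5G05600 and AT2G38240 and the gene table of the study named the 3 CYP94 genes. The genes were chosen by their high signals in cyp78a5,7 against wild type, and the gene table itself lists genes changed on the same arrays, with all 3 CYP94 genes in its cyp78a5,7 part. The values of cyp78a5,7 against wild type are therefore given as a description, with no test.

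Jasmonic acid becomes hormonally active when it is conjugated to isoleucine. The conjugate is perceived by COI1 together with the JAZ repressors, and its removal ends the response. CYP94B enzymes hydroxylate the conjugate at its omega carbon, and CYP94C1 oxidizes the hydroxylated form further to a carboxy derivative. Oxygenases that use 2-oxoglutarate act one step earlier in Arabidopsis and hydroxylate free jasmonic acid before it is conjugated. Wounding and jasmonate itself are known to induce the CYP94 genes, which makes them part of a negative feedback loop.

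The arrays came from whole Col-0 seedlings aged 10 days, with 3 biological replicates each of the cyp78a5,7 double mutant, the amp1-13 mutant and wild type. The double mutant carries T-DNA insertions in the cytochrome P450 genes CYP78A5 and CYP78A7, and amp1-13 is a strong allele of the putative carboxypeptidase gene AMP1. All groups were grown in liquid half-strength medium with 1% sucrose and 1% DMSO at 26 °C and 16 h of light, and each genotype is 1 line. The number of seedlings in a sample was not given. In bulk seedlings, more transcript in the same cells cannot be told apart from more cells of the type that makes it.

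Signals are those of the MAS5 algorithm on a linear scale, as deposited. The median signal was 34.4 to 37.1 on the cyp78a5,7 arrays, 37.7 to 38.4 on the amp1-13 arrays and 31.1 to 38.9 on the wild type arrays, and between 34.5% and 38.3% of the probe sets of an array lay under a signal of 16. Changes are log2 fold changes of the signal plus 16 after quantile normalization, and calls needed at least a 2-fold change together with an adjusted p from limma under 0.05. Of the marker genes of organs, RCA, from leaves, had 2161 to 2789 in cyp78a5,7, 3035 to 3825 in amp1-13 and 1898 to 2701 in wild type, and PYK10, from roots, had 3600 to 4467, 4309 to 4853 and 4628 to 5154 in the same genotypes. These are deposited signals. After quantile normalization the log2 fold changes of PYK10 were 0.10 in cyp78a5,7 (adjusted p = 0.553 from limma) and 0.09 in amp1-13. Those of RCA were 0.37 in cyp78a5,7 and 0.78 in amp1-13 (adjusted p = 0.0177 from limma), under 2-fold. The nitrate transporter gene NRT2.1, a root marker, was named only through the list of genes changed in cyp78a5,7, so that its difference there, 1.75 (SE 0.30), is given without a test, with 78.4, 140 and 240 in cyp78a5,7, 28.5, 29.7 and 20.5 in amp1-13 and 23.3, 31.1 and 31.4 in wild type. EXPA7 was the remaining root marker with a named probe set, 3 of 5 in all, against 1 of 5 for leaf, and no seed or flower marker had one. Of the mutated genes only CYP78A7 had a named probe set, with 21.2, 25.0 and 37.1 in cyp78a5,7, 12.2, 31.9 and 28.7 in amp1-13 and 11.5, 9.46 and 12.7 in wild type. Where its probes lie relative to the insertion was not given, and this signal does not check the genotype.

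CYP94C1 was far higher on every cyp78a5,7 array than on any other. It had signals of 842, 1592 and 1673 in cyp78a5,7, 70.7, 38.5 and 49.1 in amp1-13 and 16.3, 20.0 and 13.8 in wild type. The 3 genotypes did not overlap, with amp1-13 between the others. Mean signals were 1369 ± 458 in cyp78a5,7, 52.8 ± 16.4 in amp1-13 and 16.7 ± 3.13 in wild type (SD, n = 3 each). CYP94C1 was the member with the smallest spread in wild type, where its log2 values had an SD of 0.11.

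CYP94B3, which hydroxylates the active conjugate, had the same order of genotypes. Its signals were 829, 1133 and 1069 in cyp78a5,7, 156, 41.6 and 51.5 in amp1-13 and 36.9, 10.0 and 13.3 in wild type. A single array stood out in each of the lower genotypes, replicate 1 of amp1-13 and replicate 1 of wild type. As deposited, all amp1-13 signals lay above all wild type signals, by a narrow margin. After quantile normalization replicate 2 of amp1-13, at 5.78 on the log2 scale, fell under replicate 1 of wild type, at 5.86.

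CYP94B1 is the other gene of the CYP94B branch described here. Signals of 164, 493 and 835 in cyp78a5,7 stood against 22.7, 7.45 and 6.62 in amp1-13 and 12.5, 4.85 and 11.7 in wild type. The cyp78a5,7 arrays were all above the others, the amp1-13 and wild type arrays overlapped, and 5 of these 6 lower signals lay under 16. CYP94B1 also differed from CYP94B3 in its spread within cyp78a5,7, with a highest signal 5.08 times the lowest, against 1.37 times for CYP94B3.

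AT5G05600, from the oxygenase arm, stayed above the offset of 16 on every array. It reached 897, 1635 and 2533 in cyp78a5,7, 119, 105 and 89.0 in amp1-13 and 102, 39.9 and 40.2 in wild type. Replicate 1 of wild type fell within the amp1-13 range, and the other 2 wild type arrays lay under it. Means were 1688 ± 819 in cyp78a5,7, 104 ± 14.9 in amp1-13 and 60.6 ± 35.6 in wild type (SD, n = 3 each).

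AT2G38240, the other oxygenase gene, varied more than the other 4 in cyp78a5,7 and in wild type. It had 440, 1176 and 2640 in cyp78a5,7, 11.3, 7.70 and 6.28 in amp1-13 and 64.4, 5.55 and 0.723 in wild type. The cyp78a5,7 arrays were all above the others, whereas the wild type arrays enclosed the amp1-13 arrays on both sides. The wild type mean of 23.5 ± 35.4 (SD, n = 3) rested on replicate 1. The SD of its log2 values in wild type was 1.3, against a median of 0.18 over all probe sets.

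**Figure D1:**
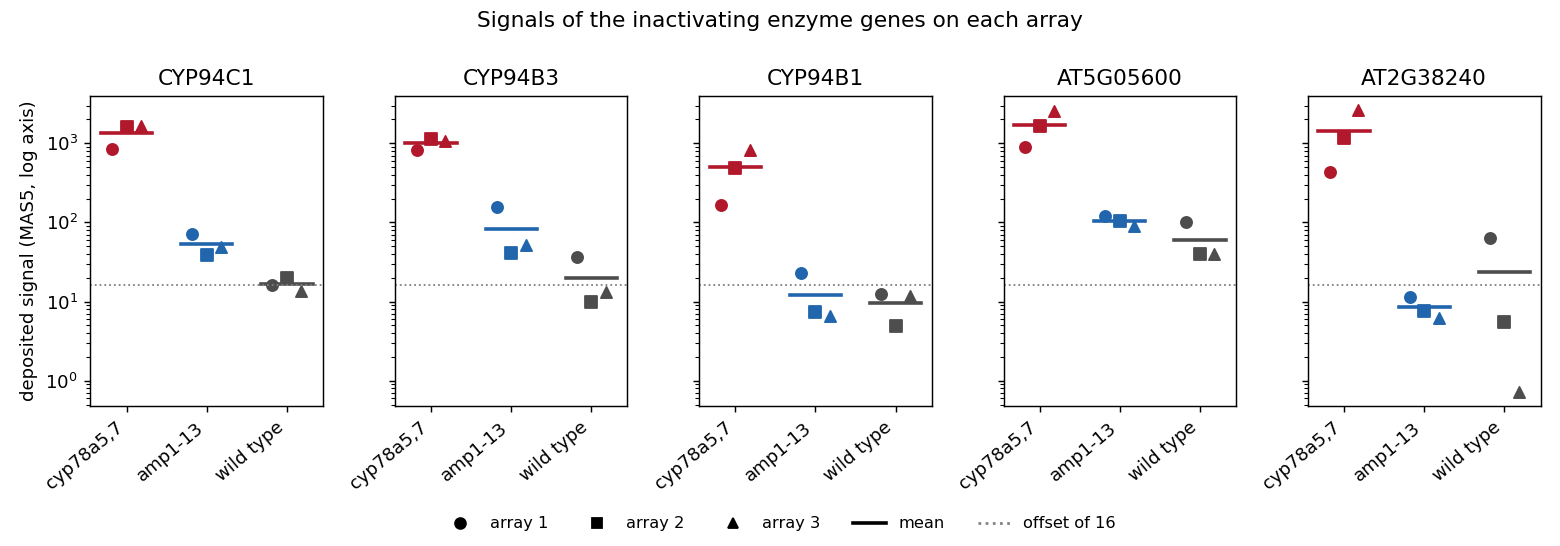
Deposited MAS5 signals (log axis) of the 5 genes in cyp78a5,7, amp1-13 and wild type. Symbols are the arrays by replicate number, bars are means of 3 arrays and the dotted line is the offset of 16. Every cyp78a5,7 array lies above every other array for all 5 genes, from 164 for CYP94B1 upward, while AT2G38240 in wild type runs from 0.723 to 64.4.

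In cyp78a5,7 against wild type the 5 genes were among the most raised of the whole array. The log2 fold changes were 5.36 (SE 0.27) for CYP94C1, 5.21 (SE 0.73) for AT2G38240, 4.87 (SE 0.44) for CYP94B3, 4.50 (SE 0.42) for AT5G05600 and 4.03 (SE 0.50) for CYP94B1. These were ranks 1, 3, 6, 9 and 20 among 22746 probe sets. All 5 were called higher, against 4.37% of all probe sets, and in all 5 the cyp78a5,7 and wild type arrays did not overlap, against 14.9% of all probe sets above wild type in this way. Since the genes were chosen by this contrast, nothing further is read from these counts. The median change of the 5 genes was 4.87, and that of all probe sets was -0.02.

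The sizes of these changes depended on the offset. With no offset the log2 fold changes were 4.87 to 7.47, with AT2G38240 at the top, and with an offset of 64 they were 2.70 to 4.12, with CYP94C1 at the top. The value of 2.70, that of CYP94B1, was the smallest for any of the 5 genes over all settings tried. Leaving out 1 array moved AT2G38240 most, between 4.55 without replicate 3 of cyp78a5,7 and 5.93 without replicate 1 of wild type, and CYP94B1 between 3.53 and 4.66.

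In amp1-13 against wild type none of the 5 genes was called (limma, 1.8% of all probe sets called higher). At an unadjusted p under 0.05, 2 of the 5 were higher, against 12.2% of all probe sets. The wild type arrays are shared with the contrast that chose the genes, and earlier results of the amp1-13 arrays were known as well, so the tests are not independent of the choice. CYP94B3 had the largest change of the group, 1.27 (SE 0.44, 95% interval 0.27 to 2.27, adjusted p = 0.0975 from limma), and without replicate 1 of amp1-13, which was well above the others, it was 0.76. It was 1.93 with no offset and 0.69 with an offset of 64. CYP94C1 stood at 0.97 (SE 0.27, 95% interval 0.36 to 1.58), just under 2-fold, with an adjusted p = 0.0487 from limma. With no offset it was 1.51 (adjusted p = 0.052 from limma) and with an offset of 64 it was 0.49 (adjusted p = 0.252 from limma). With the offset of 16, CYP94C1 was the only one of the 5 genes with an adjusted p under 0.05, against 5.35% of all probe sets higher by that rule, and the only one whose normalized arrays did not overlap, against 14.5% of all probe sets.

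The other 3 genes had intervals that included 0 in amp1-13. AT5G05600 was at 0.68 (95% interval -0.27 to 1.63, adjusted p = 0.342 from limma), CYP94B1 at 0.04 (-1.08 to 1.17, adjusted p = 0.976) and AT2G38240 at -0.39 (-2.06 to 1.28, adjusted p = 0.805). The last value depended on 1 array, since without replicate 1 of wild type it was 0.36. That of AT5G05600 was 1.06 without the same array and 0.44 without replicate 2 of wild type, and 0.42 with an offset of 64. In this fit all 3 intervals include a 2-fold rise, and no interval in amp1-13 reached the estimate of the same gene in cyp78a5,7. The intervals also carry the spread of the cyp78a5,7 arrays, since each SE was fitted over all 3 genotypes. From amp1-13 and wild type alone the SE was 0.25 for CYP94B1, against 0.50 with all arrays. It was 0.32 against 0.42 for AT5G05600 and 0.59 against 0.73 for AT2G38240, but 0.49 against 0.44 for CYP94B3. The CYP94C1 call was made as deposited, without quantile normalization, at 1.05 (adjusted p = 0.0393 from limma). The call of CYP94B3 was made when the dimmest 30% of probe sets were left out (adjusted p = 0.0417 from limma), which reduced the number of tests. Over the fits without 1 array the adjusted p ran from 0.0125 to 0.16 for CYP94C1 and from 0.0746 to 0.257 for CYP94B3.

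**Figure D2:**
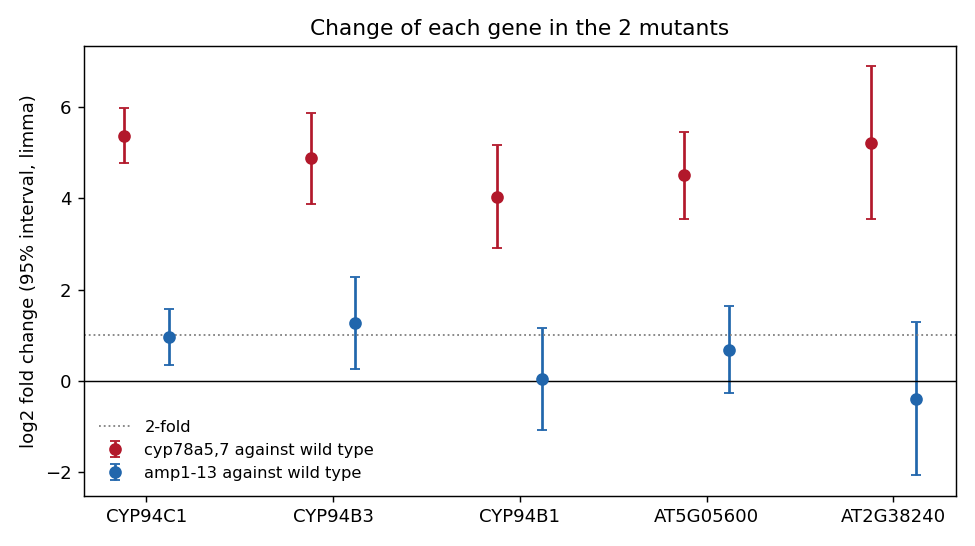
Log2 fold changes against wild type for cyp78a5,7 (red) and amp1-13 (blue), with 95% intervals from limma (n = 3 arrays each); the dotted line is 2-fold. In cyp78a5,7 the estimates run from 4.03 to 5.36, and in amp1-13 from -0.39 to 1.27 with 3 intervals that include 0.

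In the direct comparison of the mutants, every cyp78a5,7 array lay above every amp1-13 array for each of the 5 genes, against 14.5% of all probe sets. The cyp78a5,7 arrays took part in the choice of the genes, so these differences are also given as a description. They were 5.60 (SE 0.73) for AT2G38240, 4.39 (SE 0.27) for CYP94C1, 3.99 (SE 0.50) for CYP94B1, 3.82 (SE 0.42) for AT5G05600 and 3.60 (SE 0.44) for CYP94B3 on the log2 scale. All 5 were called, against 2.15% of all probe sets called higher in cyp78a5,7 than in amp1-13. The order of the genes differed from that against wild type, where CYP94C1 led, and AT2G38240 had the widest error. In every fit that left out 1 array all 5 remained called.

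The order of the arrays within a genotype was much the same from gene to gene. In cyp78a5,7, replicate 1 was the lowest for all 5 genes, with a median difference of -1.21 on the log2 scale from the mean of the other 2 arrays. Over all probe sets replicate 1 was the lowest in 35.0%, and over the probe sets called higher in cyp78a5,7 in 53.8%. Replicate 3 was the highest for 4 of the genes and replicate 2 for CYP94B3, by a small margin. The mean log2 value of the 5 genes was 9.15, 10.16 and 10.70 on the 3 cyp78a5,7 arrays. The root markers NRT2.1 and EXPA7 were lowest on replicate 1 and highest on replicate 3 as well, EXPA7 with 21.2, 49.7 and 89.2, and PYK10 was lowest on replicate 1 and highest on replicate 2, with 3600, 4467 and 4065. The leaf marker RCA ran the other way, with 2789, 2424 and 2161. RCA also fell from replicate 1 to 3 in amp1-13, with 3825, 3727 and 3035, and in wild type, with 2701, 2269 and 1898. The root markers had no common order there. EXPA7 was highest on replicate 1 in both, with 85.9, 52.2 and 45.6 in amp1-13 and 50.9, 40.4 and 48.2 in wild type. NRT2.1 and PYK10 were both highest on replicate 2 in amp1-13 and on replicate 3 in wild type. The part of tissue composition in the order of the cyp78a5,7 arrays was not tested.

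In both other genotypes, replicate 1 was the highest array for all 5 genes on the normalized scale. In amp1-13 it lay above the mean of the other 2 arrays by a median of 0.56, where the whole set of probe sets gave -0.01, and it was the highest array in 33.3% of all probe sets and in 69.4% of those called higher in cyp78a5,7. In wild type the median difference was 1.08, and replicate 1 was the highest in 33.6% of all probe sets and in 41.8% of those called higher in cyp78a5,7. The mean log2 value of the 5 genes was 6.17, 5.47 and 5.54 on the amp1-13 arrays and 5.87, 4.84 and 4.92 on the wild type arrays. In this mean replicate 1 of wild type stood above replicates 2 and 3 of amp1-13, most widely for AT2G38240, with 6.45 against 4.49 and 4.51. Not every gene followed. CYP94C1 had 5.13 against 5.70 and 5.98, and CYP94B3 had 5.86 against 5.78 and 6.03. On the deposited scale the highest array was the same except for CYP94C1 in wild type, where it was replicate 2. Replicate 1 of wild type was also an array with a low median signal of 31.1 and a high 99th percentile of 2063, before quantile normalization. The part of this in the order of the arrays was not tested.

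**Figure D3:**
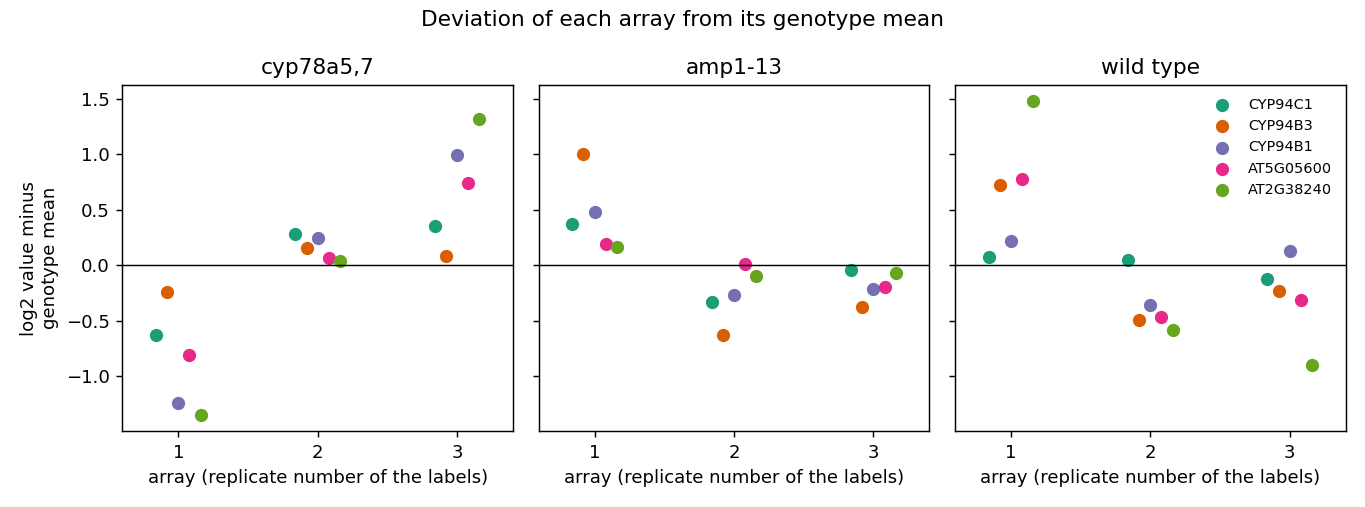
Normalized log2 value of each gene minus the mean of its genotype, for the 3 arrays of cyp78a5,7, amp1-13 and wild type. Replicate 1 lies below the mean for all 5 genes in cyp78a5,7 and above it for all 5 in amp1-13 and wild type, and the distances of AT2G38240 are wide in cyp78a5,7 and wild type.

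Spread within a genotype differed between the genes. Among the SDs of log2 values over the 3 cyp78a5,7 arrays, that of AT2G38240 (1.33) was at percentile 99.9, that of CYP94B1 (1.14) at 99.8, that of AT5G05600 (0.78) at 98.7 and that of CYP94C1 (0.55) at 96.0. CYP94B3 had 0.22, at percentile 66.0. In wild type CYP94C1 was at percentile 25.8 and CYP94B1 at 83.3, and the other 3 genes were at 99.3 or above. In amp1-13 CYP94B3 had the widest spread of the 5 (0.88, percentile 99.9) and AT2G38240 the narrowest (0.15, percentile 58.1), with AT5G05600 at 73.9. AT2G38240 was under 16 on all amp1-13 arrays, so that the offset narrowed its SD. Its highest deposited signal there was 1.80 times the lowest, against 1.33 times for AT5G05600, the narrowest of the 5 by that measure.

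Within the group the most alike profiles were those of CYP94C1 and CYP94B3 and those of CYP94B1 and AT5G05600. As a measure of likeness, each profile was set to 0 at its wild type mean, and the root mean square difference over the 9 arrays was taken, where a smaller value is more alike. It was 0.53 for CYP94C1 and CYP94B3 and 0.56 for CYP94B1 and AT5G05600, but 1.01 between the CYP94B genes. AT5G05600 was nearly as close to CYP94B3 (0.61) and to CYP94C1 (0.64), so the pairs were not clearly apart. The most distant pair was CYP94B3 and AT2G38240, at 1.22. Outside the group, the named probe sets most like the mean of the 5 genes were the transcription factor gene RAP2.6 (0.40), JAZ10, which encodes a repressor of jasmonate signalling (0.43), AT1G22810 (0.49), AT2G34930 (0.52) and the chitinase gene EP3 (0.56).

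The measure of likeness used all 9 arrays, so the changes of these genes are fixed in part by their selection. Their log2 fold changes were 4.11 to 5.29 in cyp78a5,7, with RAP2.6 at the top, and 0.51 to 1.12 in amp1-13, none of them called there (adjusted p = 0.12 to 0.612 from limma). JAZ10 was also the nearest gene to CYP94C1 (0.46) and to CYP94B3 (0.33) singly. TAT3, a tyrosine aminotransferase gene induced by jasmonate, was the nearest to AT5G05600 (0.42), AT4G22610 to CYP94B1 (0.41) and RAP2.6 to AT2G38240 (0.63).

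The remaining genes of jasmonate turnover differed in their changes, and those not called in cyp78a5,7 were dim, with at most 23.1 on any array. Of 10 listed, 5 had a named probe set, and 2 of these were called higher in cyp78a5,7 (4.37% of all probe sets) and none lower (2.64%). CYP94B2 and ILL6 were named only through the list of genes changed in cyp78a5,7, so their changes there follow in part from the naming and are given without a test. JRG21, annotated as a jasmonate-regulated gene, had 43.1, 153 and 498 in cyp78a5,7, 3.54, 12.7 and 0.497 in amp1-13 and 12.9, 0.632 and 0.230 in wild type. It rose in cyp78a5,7 by 3.07 on the log2 scale (SE 0.66, adjusted p = 0.0119 from limma) and, like all 5 inactivating enzymes, was lowest there on replicate 1. All its amp1-13 and wild type signals were under 16, so the size depends on the offset. The change of JRG21 was 6.86 with no offset (adjusted p = 0.0363 from limma) and 1.76 with an offset of 64 (adjusted p = 0.047 from limma). ILL6, an amidohydrolase that cleaves the conjugate, differed in cyp78a5,7 by 2.79 (SE 0.26), with 476, 921 and 1034 in cyp78a5,7, 93.7, 78.2 and 81.1 in amp1-13 and 92.8, 90.9 and 107 in wild type.

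ILL6 thus had a narrow range in amp1-13 and wild type, at log2 fold change -0.24 in amp1-13 (adjusted p = 0.628 from limma). The paralogue CYP94B2 was dim and not called, with a mean of 16.7 in cyp78a5,7, 7.32 in amp1-13 and 3.57 in wild type and a log2 fold change of 0.76 in cyp78a5,7, under 2-fold. With no offset its change was 2.70. AT3G11180 lay under 16 on every array, between 0.203 and 12.2, and had 0.36 in cyp78a5,7 (adjusted p = 0.155 from limma). JMT, a methyltransferase that converts jasmonic acid to its methyl ester, had -0.71 in cyp78a5,7 (adjusted p = 0.0174 from limma), also under 2-fold. Its signals were 8.89, 0.681 and 9.20 in cyp78a5,7, 7.62, 9.87 and 6.96 in amp1-13 and 19.3, 17.2 and 20.9 in wild type. With no offset the change of JMT in cyp78a5,7 was -2.38 (adjusted p = 0.127 from limma). None of the 5 was called in amp1-13 (limma, 1.8% of all probe sets called higher and 0.796% lower), where JMT stood at -0.61 (adjusted p = 0.0504 from limma) and JRG21 at 0.03 (adjusted p = 0.988).

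Genes of synthesis and signalling gave the wider setting. Of 9 synthesis genes with a named probe set 8 were called higher in cyp78a5,7 and of 12 signalling genes 10 (4.37% of all probe sets), and in amp1-13 1 and 4 (1.8% of all probe sets), with none lower. The median log2 fold change was 2.47 for synthesis and 3.73 for signalling in cyp78a5,7, against 4.87 for the inactivating enzymes. In amp1-13 the median was 0.55 for synthesis, 0.94 for signalling and 0.68 for the inactivating enzymes, and that of all probe sets was -0.01. Of these probe sets 7 of the 9 and 10 of the 12 were named only because they stand in the list of genes changed in cyp78a5,7, so the counts there follow largely from the naming. The amp1-13 counts depended on single arrays, with 1 signalling gene without replicate 3 of wild type or replicate 1 or 2 of amp1-13, and 0 synthesis genes without any 1 of the wild type arrays, replicate 1 or 2 of cyp78a5,7 or replicate 1 of amp1-13. With an offset of 64 they were 1 and 0.

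AOS and OPR3, enzymes of the synthesis pathway, had smaller changes than the 5 genes in cyp78a5,7. The synthesis genes LOX3, at 4.28, and LOX4, at 4.09, lay above CYP94B1, at 4.03. The signalling genes JAZ7 (4.89), JAZ10 (4.85), JAZ5 (4.61), JAZ1 (4.13) and JAZ8 (4.08) were also within the range of the 5 genes. AOS had 959, 1140 and 1630 in cyp78a5,7, 438, 367 and 470 in amp1-13 and 313, 282 and 324 in wild type, a difference of 1.97 (SE 0.18) in cyp78a5,7. OPR3 was at 3.04 (SE 0.19) in cyp78a5,7 and 0.55 (adjusted p = 0.0913 from limma) in amp1-13. Replicate 1 of amp1-13 was the highest of its genotype for 15 of the 21 synthesis and signalling genes, and replicate 1 of wild type for 14. Replicate 1 of cyp78a5,7 was the lowest for 10 of the 21, whereas it was the lowest for all 5 inactivating enzymes and for 4 of the 5 other turnover genes. Of those 5, replicate 1 was the highest for 2 in amp1-13 and for 1 in wild type. Whether these shares differ between the groups of genes was not tested.

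**Figure D4:**
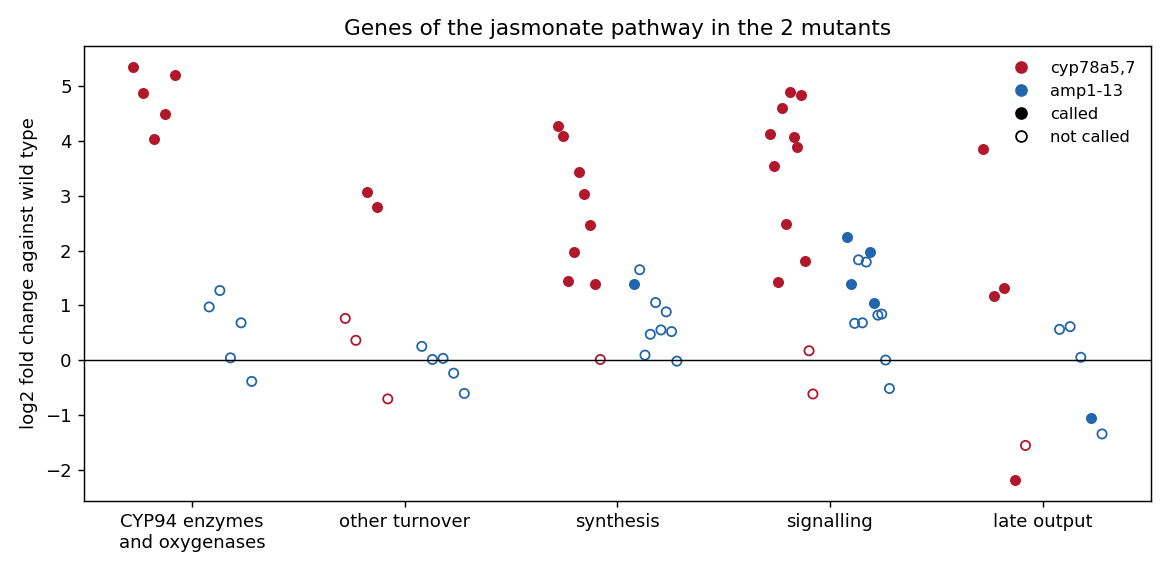
Log2 fold changes against wild type of the jasmonate genes with a named probe set, by group, in cyp78a5,7 (red) and amp1-13 (blue). Filled points were called (adjusted p under 0.05 from limma and 2-fold), open points were not. The 5 inactivating enzymes lie between 4.03 and 5.36 in cyp78a5,7 and none is called in amp1-13, where 4 signalling genes and 1 synthesis gene are called higher.

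Of 5 late output genes with a named probe set, 3 were called higher and 1, the transcription factor gene ORA59, lower in cyp78a5,7, where 2.64% of all probe sets were called lower. All 4 were named only through the list of genes changed in cyp78a5,7, so these counts follow from the naming. ORA59 was also called lower in amp1-13, against 0.796% of all probe sets, and is named here after its values were seen. The defensin gene PDF1.2A was at -1.56 (SE 0.93, adjusted p = 0.277 from limma) in cyp78a5,7 and had a single wild type array, replicate 3 at 343, far above the rest. The call of ORA59 in amp1-13 was lost without replicate 1 or 3 of wild type, without replicate 1 or 2 of amp1-13 and with either other offset.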

How the data were processed

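Affymetrix ATH1 arrays of 9 samples were used, 3 for each genotype. The deposited signal intensities were made by the authors with MAS5 (version not given in the sources used here), with each array scaled to a common trimmed mean; RMA, which the study's own analysis used, could not be repeated from them. Here 64 control probe sets were left out, an offset of 16 was added, and log2 values were quantile normalized and fitted with limma 3.58.1 in R 4.3.3, with genotype as the only term (6 residual and 2.69 prior degrees of freedom, Benjamini-Hochberg adjustment over 22746 probe sets). The annotation gave 13513 probe sets 1 gene and the gene table of the study, in the part used here mostly a list of genes changed in cyp78a5,7, named 820 more, from its identifier columns alone; its fold changes and p-values were not used. The 5 genes, the lists and the settings were chosen with earlier results of these data known. Genes named were the 5, all turnover genes with a probe set, preset pathway genes and the nearest profiles. ORA59, AT2G38250, LOX3, LOX4, JAZ1, JAZ5, JAZ7 and JAZ8 were chosen after their values were seen. No detection calls and no sequences were used, and p-values measure the spread between 3 biological replicates per genotype. The fit was tested on simulated data. Figures used matplotlib 3.10.9.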

Additional observations from a re-analysis of the deposited data

How the results depend on the processing

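The genes were chosen by their cyp78a5,7 signals, so their 5 calls in that mutant, against wild type and against amp1-13, are no sign of stability; the count was 5 under each of 20 alternatives (other scalings, offsets, a filter on dim probe sets, fits of 2 genotypes, the replicate block, other variance models and fold thresholds, and leaving out each array). In amp1-13 against wild type the count was 0, and 1 with values as deposited, without the dimmest 30% of probe sets, with no fold threshold and with a 1.5-fold threshold; it was 0 in every fit without 1 array. Members whose amp1-13 arrays all lay above wild type numbered 1 of 5, against 14.5% of all probe sets. They numbered 2 as deposited or centred on the 75th percentile, where the share over all probe sets was not computed. The sign of AT2G38240 in amp1-13 turned to 0.27 with no offset and to 0.36 without replicate 1 of wild type, and that of CYP94B1 to -0.14 without replicate 2 of wild type and -0.20 without replicate 1 of amp1-13; all of these had wide errors, and the cause was not tested. Over fits without 1 array the amp1-13 changes ran from -0.84 to 0.36 for AT2G38240 and from -0.20 to 0.18 for CYP94B1. With the replicate block the counts were 5 in cyp78a5,7 and 0 in amp1-13, where CYP94C1 had an adjusted p of 0.0899 from limma. Arrays sharing a replicate number correlated at -0.119 to 0.161 after genotype means were removed, and others at -0.174 to 0.247. These ranges overlapped, and 5 of 9 arrays correlated best with their own number. Whether arrays with the same number were handled together cannot be told from these values. With an offset of 64 the calls over all probe sets fell to 559 higher and 215 lower in cyp78a5,7, against 995 and 601, and to 184 and 58 in amp1-13, against 410 and 181. In cyp78a5,7 against amp1-13 they fell to 256 and 155, against 490 and 401. With no offset 1058 were called lower in cyp78a5,7 than in wild type. Over fits without 1 array the calls ran from 856 to 1136 higher and 438 to 900 lower in cyp78a5,7, from 236 to 489 and 90 to 434 in amp1-13, and from 290 to 675 and 263 to 595 between the mutants.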

Other observations

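The genes directly beside the 5 on the chromosome, by the order of protein-coding genes in the RefSeq annotation of TAIR10.1, were looked up after the values had been seen. Of 10 such genes 6 had a named probe set, and 5 of these were not called in cyp78a5,7 against wild type, with log2 fold changes of -0.59 to 0.34. The exception was AT2G38250, which lies next to AT2G38240 and was called higher, as were 4.37% of all probe sets. AT2G38250 had 47.7, 66.9 and 100.0 in cyp78a5,7, 16.4, 14.9 and 15.7 in amp1-13 and 6.30, 1.24 and 1.11 in wild type. Its log2 fold change was 2.17 in cyp78a5,7 (SE 0.21) and 0.71 in amp1-13 (SE 0.21, adjusted p = 0.0655 from limma). The gene was singled out by its call in cyp78a5,7, so that change is given without a test. Both neighbours were highest on the same array in cyp78a5,7 and in wild type. In amp1-13, where neither gene was called, all deposited AT2G38250 signals lay above all those of wild type. Over all probe sets the share above wild type in this way was 14.5% after normalization. The wild type signals were under the offset, so the size of the change depends on it.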
